A study of Mus musculus with 6 samples.

Results

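The 10 genes described here encode the regulators that set the pace of G1 in LSK cells: the cyclins *Ccnd1*, *Ccnd2*, *Ccnd3*, *Ccne1* and *Ccne2*, the kinases *Cdk4* and *Cdk6*, and the kinase inhibitors *Cdkn1b*, *Cdkn2c* and *Cdkn2d*. They were taken by gene name from the deposited table, which holds 54532 genes, and all 10 were found once. Of the 10, 6 differed between *Myh9*-deficient and control LSKs, with *Ccne1* and *Ccnd2* higher and *Cdkn2c*, *Cdkn1b*, *Cdk6* and *Ccnd3* lower in the *Myh9*-deficient cells. Over all genes tested, 40.5% differed. None of the 10 changed as much as 2-fold, and relative to control the mean of *Ccne1* rose by 30.7% and that of *Cdkn2c* fell by 24.8%.

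LSK cells are bone marrow (BM) cells without lineage markers that carry Sca1 and c-Kit, a fraction that holds the hematopoietic stem and multipotent progenitor cells. RNA-seq was done on 3 sorted LSK sets from Myh9fl/fl;Mx1-cre mice (cKO) and 3 from littermates that carried the floxed alleles without Cre (CTRL), all C57BL/6, with 100000 cells in each set. Mice were genotyped at 4 to 5 weeks of age, and both groups received poly I:C at 5 mg/kg and were sampled 4 days after the first injection. The labels give 2 injections and the methods 3. The *Mx1* promoter that drives Cre responds to interferon, which poly I:C induces, and it is not limited to blood cells. Both groups thus had the poly I:C stimulus. How many mice made up 1 set is not given in the sources used here, and p-values therefore measure the spread between these sets.

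Levels are in FPKM, which sets the fragments of a gene against its length and the size of the library. The libraries held 17571544 to 19894562 reads on genes. *Myh9* itself lay between 22.0 and 23.0 FPKM in control and between 17.65 and 19.96 FPKM in *Myh9*-deficient libraries, a fall of the mean by 17.1% (adjusted p = 0.00642, limma). This value covers the whole gene and does not single out the floxed exon. The genes behind the sort were expressed in every library, *Kit* at 21.2 to 24.3 FPKM and *Ly6a*, which encodes Sca1, at 85.4 to 96.7 FPKM. Of 8 genes listed for LSK cells, 7 were tested, of which *Flt3* (19.8 to 30.1 FPKM, adjusted p = 1.5e-04) and *Hlf* (3.73 to 5.16 FPKM, adjusted p = 0.0125) rose and *Kit* fell (23.9 to 21.5 FPKM, adjusted p = 0.0105, limma). Markers of other cell types differed between the groups. Of 8 erythroid genes, 7 were tested and all 7 were higher in *Myh9*-deficient LSKs, with a summed level of 83.3 to 86.4 FPKM in the control and 154 to 164 FPKM in the *Myh9*-deficient libraries. The eighth, *Hba-a2*, was below the filter, at 0.151 to 0.255 FPKM in the control and 0 to 0.0822 FPKM in the *Myh9*-deficient libraries (at most 3 reads). Of 6 megakaryocyte genes, 3 were tested and 3 were higher (56.7 to 60.4 against 125 to 129.7 FPKM, with *Gp1bb* at 0 in all libraries), and 4 of 5 mast cell and basophil genes were higher (89.8 to 101.9 against 147 to 157 FPKM). Of 7 neutrophil and monocyte genes, 5 were tested and 4 were lower (6610 to 6667 against 3453 to 3518 FPKM). *Mpo* (3331 to 1953 FPKM) and *Elane* (3096 to 1346 FPKM) made up most of this sum, while *S100a8* measured 67.8 and 67.3 FPKM (adjusted p = 0.885, limma). T and NK cell genes (3 higher and 1 lower of 4 tested, 7 listed) summed to 366 to 377 against 336 to 339 FPKM. Most of this sum was *Nkg7*, the gene that was lower (353 to 280 FPKM), while *Gzmb* (5.04 to 15.9 FPKM) and *Ccl5* (10.1 to 35.5 FPKM) rose. Of the T cell genes in this list, *Trbc2* rose from 1.22 to 6.14 FPKM (adjusted p = 1.7e-05, limma), while *Cd3e* (0 in all control libraries and 0.183 to 0.282 FPKM in the cKO libraries), *Cd4* (0.274 to 0.349 and 0.706 to 0.911 FPKM) and *Cd8a* (at most 0.0277 FPKM in control and 0 in all cKO libraries) were below the filter and not tested. The B and plasma cell genes (3 higher and 1 lower of 4 tested, 6 listed) summed to 98.7 to 99.3 against 121 to 128 FPKM. The part of these cell types in the differences of G1 regulators was not tested, and in bulk RNA fewer cells that express a gene and less RNA of it per cell cannot be told apart.

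In G1, D-type cyclins bind and activate CDK4 and CDK6, which phosphorylate the retinoblastoma protein and its relatives and so release E2F transcription factors. E2F factors then drive genes for DNA replication and E-type cyclins, which work with CDK2 to start S phase. INK4 inhibitors such as p18 (*Cdkn2c*) and p19 (*Cdkn2d*) bind CDK4 and CDK6 themselves, and p27 (*Cdkn1b*), of the CIP/KIP family, blocks cyclin E with CDK2. In hematopoietic stem cells, the inhibitors are known for their part in holding cells out of cycle, CDK6 for exit from quiescence, and p18 as a brake on self-renewal.

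All 10 genes were above the filter on low values, a mean of 1 FPKM over the 6 libraries, and had 268 to 13705 reads in a library. *Cdk4* stood far above the other members, at 210.5 ± 0.967 FPKM (SD, n = 3) in the control and 217.4 ± 7.04 FPKM in the *Myh9*-deficient LSKs, which placed it at the 97.6th percentile of the 11552 genes tested. In control LSKs the level of *Cdk4* was followed by those of *Cdkn2d*, *Ccnd3*, *Cdk6*, *Cdkn2c*, *Cdkn1b*, *Ccnd2*, *Ccne1*, *Ccne2* and *Ccnd1*, from 28.2 down to 3.59 FPKM. Neighbours in this order were separated in every library except *Cdkn2c* and *Cdkn1b*, whose ranges overlapped. In *Myh9*-deficient LSKs, *Ccnd2* moved from the seventh to the fourth place and *Ccne1* from the eighth to the sixth, and *Cdkn1b* and *Cdkn2c* followed at the seventh and the eighth. The ranges of *Ccnd2* and *Cdk6* overlapped there, as did those of *Cdkn1b* and *Cdkn2c*. *Ccnd1* had the lowest FPKM of the 10 in both groups.

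**Figure D1:**
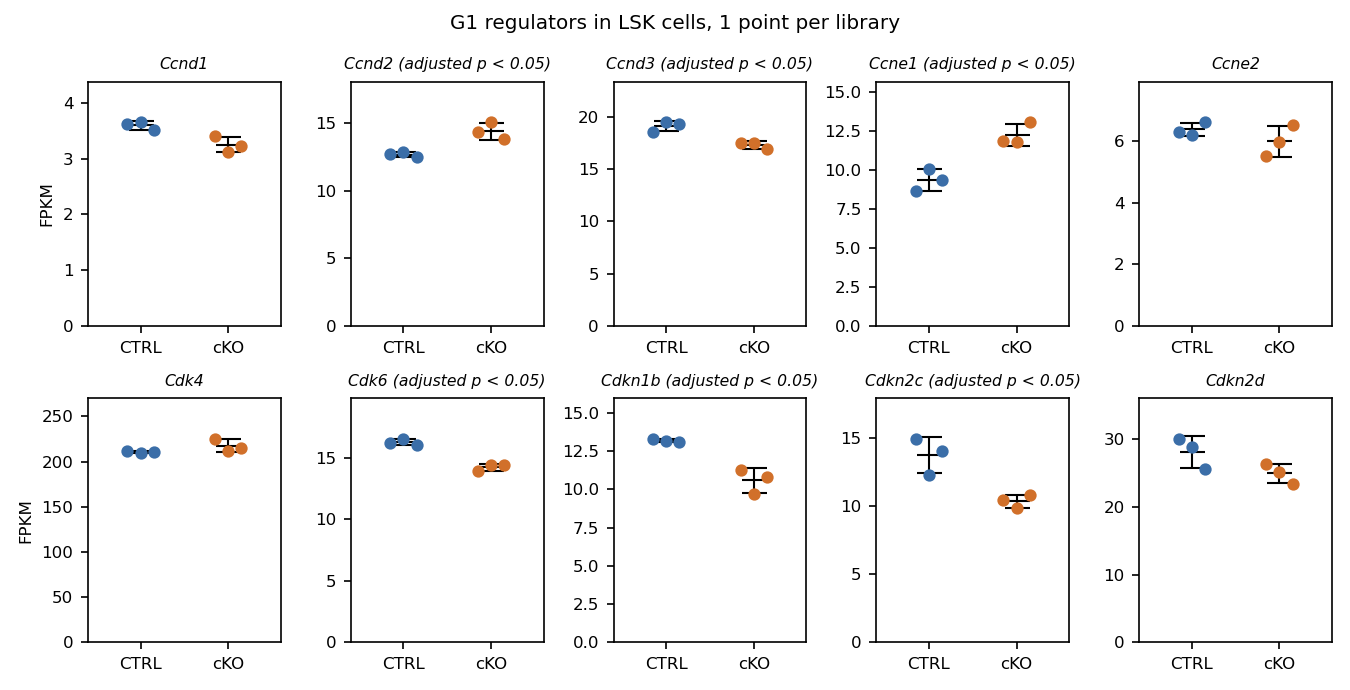
Level of each of the 10 genes (FPKM, linear axis from 0) in the 3 control (blue) and 3 *Myh9*-deficient (orange) libraries, 1 point per library, with the mean and SD as black bars. The libraries of the groups are apart in 8 panels and overlap for *Ccne2* and *Cdkn2d*, and *Cdk4*, at 209.6 to 225.2 FPKM, is on a scale of its own.

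RefSeq promoter windows of GRCm38.p6, running from 250 bases before to 50 bases after a start site, were at hand for 7 of the 10 genes (9 windows). The windows of *Ccnd1*, *Ccnd2* and *Ccne2* were not analysed here. The GC content of the 9 windows was 44.0% to 76.0%, with 8 to 41 CpG dinucleotides, against a median of 52.7% and 7 over all 32851 windows searched. Windows of 1 chromosome, which holds none of the 10 genes, were left out, and shares of all windows below are of these 32851. The stretches before the gene starts of *Ccne1*, *Cdkn1b* and *Cdk4* are shown because *Ccne1* rose most in percent, *Cdkn1b* is the KIP inhibitor that fell, and *Cdk4* is the most abundant member. Each is written 5′ to 3′ on the strand of the gene, and ends 1 base before the start of the gene in the deposited table. Capitals mark the GC box GGGCGG in *Ccne1* (chr7:38107535-38107709, minus strand), the CCAAT box in *Cdkn1b* (chr6:134920226-134920400, plus strand) and the E-box CACGTG in *Cdk4* (chr10:127063359-127063533, plus strand), on either strand.
Ccne1: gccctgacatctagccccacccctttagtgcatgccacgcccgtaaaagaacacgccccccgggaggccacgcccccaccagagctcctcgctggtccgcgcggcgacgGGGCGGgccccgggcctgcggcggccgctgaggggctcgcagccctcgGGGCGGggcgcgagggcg
Cdkn1b: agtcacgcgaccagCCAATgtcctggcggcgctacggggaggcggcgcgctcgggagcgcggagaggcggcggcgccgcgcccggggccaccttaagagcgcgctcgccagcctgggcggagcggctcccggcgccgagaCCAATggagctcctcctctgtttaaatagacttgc
Cdk4: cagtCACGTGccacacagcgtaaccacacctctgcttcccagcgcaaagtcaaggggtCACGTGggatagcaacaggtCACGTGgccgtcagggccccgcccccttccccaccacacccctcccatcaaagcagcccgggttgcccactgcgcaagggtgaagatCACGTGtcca
The window of *Cdk4* held 4 matches of CACGTG, a number reached by 0.0244% of all windows. At least 1 match was found in 3 of the 9 windows (*Cdk4*, *Cdk6* and *Cdkn2c*) and in 7.15% of all windows. The GC box was found in 7 of the 9 windows (*Ccnd3*, *Ccne1*, *Cdk4*, *Cdkn1b*, *Cdkn2c* and *Cdkn2d*) and in 35.7% of all windows, and CCAAT in 4 of the 9 and 37.4% of all. The window of *Cdkn2d* held 5 GC boxes, those of *Ccne1* and 1 of *Cdkn2c* 4 each and that of *Cdk4* 3, and 5.49% of all windows held at least 4. None of the 9 windows held the E2F words TTTCCCGC, TTTCGCGC, TTTGCCGC or TTTGGCGC (2.26% of all windows) or TTTGAA (17.9%), and TGTTTAC was found in 1 window of *Ccnd3* (3.65% of all). These matches are of letters only, in both strands, and the search covered these windows alone.

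The comparison asked which G1 regulators differ between the LSKs of cKO and CTRL mice. Each fold change is the mean log2(FPKM + 1) of *Myh9*-deficient minus that of control libraries. It was tested with limma, with p-values adjusted (Benjamini-Hochberg) across 11552 genes. At an adjusted p under 0.05, 2 of the 10 had risen and 4 had fallen in *Myh9*-deficient LSKs. This is 60% of the members, beside 40.5% of all genes tested, with 19.9% of all genes higher and 20.6% lower. The share that rose, 2 of 10, is close to that of all genes. The median log2 fold change of the 10 was -0.12, beside -0.0096 over all genes, and the median size without regard to sign was 0.17, beside 0.15. For 8 of the 10, all libraries of 1 group lay above all of the other (3 higher and 5 lower in *Myh9*-deficient LSKs), beside 54.0% of all genes tested, 25.5% higher and 28.5% lower. At the thresholds of the study, more than 2-fold with an unadjusted p under 0.05, 0 of the 10 were called, beside 2.13% of all genes. With limma, 7 of the 10 had an unadjusted p under 0.05, beside 49.2% of all genes.

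**Figure D2:**
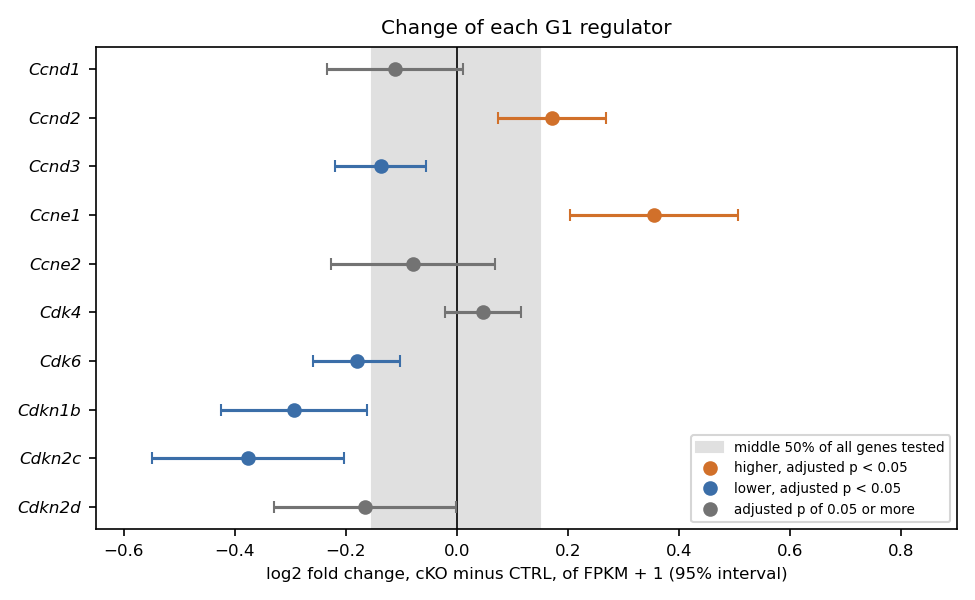
Log2 fold change of each gene (*Myh9*-deficient minus control, on FPKM + 1) with its 95% interval from limma, coloured by the call at an adjusted p under 0.05, over the grey band that holds the middle 50% of all genes tested. *Ccne1* (0.35) and *Ccnd2* (0.17) lie to the right and *Cdkn2c* (-0.38), *Cdkn1b* (-0.29), *Cdk6* (-0.18) and *Ccnd3* (-0.14) to the left of 0.

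Among the D-type cyclins, *Ccnd2* rose and *Ccnd3* fell. *Ccnd2* (ENSMUSG00000000184, mm10 chromosome 6 from 127125162 to 127152193), which encodes cyclin D2, measured 12.7, 12.9 and 12.5 FPKM in control replicates 1, 2 and 3 and 14.3, 15.1 and 13.8 FPKM in *Myh9*-deficient replicates 1, 2 and 3. All *Myh9*-deficient libraries lay above all control libraries, and the mean rose by 13.6% (log2 fold change 0.17 with an SE of 0.041, adjusted p = 0.0162, limma). Without control replicate 3 the adjusted p was 0.0519, and once each library's trend with gene length was removed the log2 fold change was 0.26 with an adjusted p of 0.00305. *Ccnd3* (ENSMUSG00000034165, chromosome 17 from 47505051 to 47599691), the gene of cyclin D3, measured 18.6, 19.5 and 19.3 FPKM across the control libraries, against 17.5, 17.5 and 16.9 FPKM in the cKO libraries. Its mean fell by 9.62% with no overlap between the groups (log2 fold change -0.14 with an SE of 0.034, adjusted p = 0.0186, limma). This call was lost without control replicate 2, control replicate 3 or cKO replicate 3 (adjusted p = 0.0561 to 0.0646), and with the trend with gene length removed, where the log2 fold change was -0.057 (adjusted p = 0.251). *Ccnd1*, which encodes cyclin D1, ranged from 3.51 to 3.65 FPKM in control and from 3.12 to 3.40 FPKM in the *Myh9*-deficient LSKs. The groups did not overlap, but the difference did not pass (95% interval of the log2 fold change -0.23 to 0.011, adjusted p = 0.129, limma).

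The summed FPKM of the D-type cyclins was 35.4 ± 0.563 in control and 34.9 ± 0.886 in *Myh9*-deficient LSKs, and the ranges overlapped. Within this sum, *Ccnd2* held 36.4%, 35.8% and 35.3% in the control libraries and 40.6%, 42.2% and 40.7% in the *Myh9*-deficient libraries. The share of *Ccnd3* was 54.0% ± 0.770 in control and 49.5% ± 0.410 in *Myh9*-deficient LSKs, and that of *Ccnd1* 10.2% ± 0.223 and 9.31% ± 0.488. The groups did not overlap for any of the 3 shares, which are given as a description with no test.

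**Figure D3:**
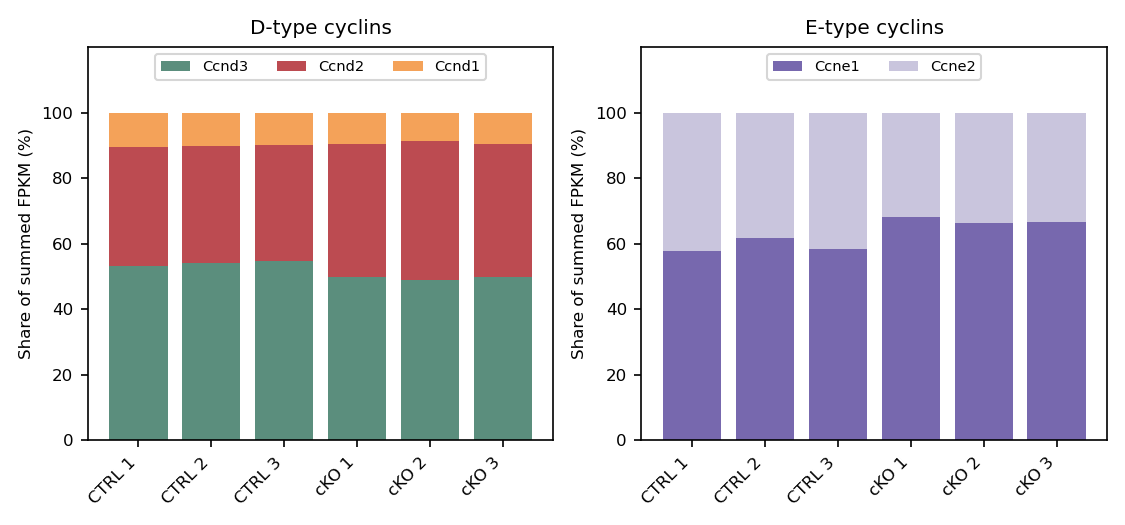
Share of each gene in the summed FPKM of the D-type cyclins (left) and E-type cyclins (right), 1 stacked bar for each of the 6 libraries, on axes in percent that start at 0. The segment of *Ccnd2* is 35.3% to 36.4% in the control and 40.6% to 42.2% in the cKO libraries, and that of *Ccne1* 57.9% to 61.8% and 66.4% to 68.2%.

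Of the E-type cyclins, *Ccne1* rose and *Ccne2* did not pass the test. *Ccne1* (ENSMUSG00000002068, chromosome 7 from 38097984 to 38107534), which encodes cyclin E1, measured 8.67, 10.1 and 9.34 FPKM in the control and 11.8, 11.8 and 13.1 FPKM in the cKO libraries. The lowest *Myh9*-deficient library exceeded the highest control library, and the mean rose by 30.7% (log2 fold change 0.35 with an SE of 0.064, adjusted p = 0.00538, limma). This was the largest rise of the 10 genes in percent and on the log2 scale, and its adjusted p was between 2.5e-04 and 0.0310 in all 18 alternatives. *Ccne2*, the gene of cyclin E2, ranged from 6.22 to 6.62 FPKM in control and from 5.52 to 6.52 FPKM in the *Myh9*-deficient LSKs, with overlap (95% interval of the log2 fold change -0.23 to 0.068, adjusted p = 0.347, limma). The share of *Ccne1* in the summed FPKM of the pair was 59.4% ± 2.12 in control and 67.1% ± 0.955 in *Myh9*-deficient LSKs.

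Of the kinases, *Cdk6* fell. *Cdk6* (ENSMUSG00000040274, chromosome 5 from 3341485 to 3531008) measured 16.2, 16.5 and 16.0 FPKM in the control and 13.9, 14.4 and 14.4 FPKM in the cKO libraries, and every *Myh9*-deficient library lay below every control library. The mean fell by 12.5% (log2 fold change -0.18 with an SE of 0.033, adjusted p = 0.00565, limma). With 13989 bases, *Cdk6* is the longest of the 10 genes in the deposited table, and with the trend with gene length removed its log2 fold change was -0.077 (adjusted p = 0.0924). *Cdk4*, whose product shares the D-type cyclins with that of *Cdk6*, measured 211.5, 209.6 and 210.4 FPKM in the control and 225.2, 211.6 and 215.3 FPKM in the *Myh9*-deficient libraries. The groups were apart by a small step, and the difference did not pass (log2 fold change 0.046, 95% interval -0.022 to 0.11, adjusted p = 0.245, limma). Its direction turned with quantile normalization (-0.028), and it passed with voom on the recovered reads (0.066, adjusted p = 0.0387). *Cdk6* made up 7.17% ± 0.128 of the summed FPKM of both kinases in control and 6.14% ± 0.292 in *Myh9*-deficient LSKs.

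Of the inhibitors, *Cdkn2c* and *Cdkn1b* fell. *Cdkn2c* (ENSMUSG00000028551, chromosome 4 from 109660876 to 109667189), which encodes p18, measured 14.9, 12.3 and 14.0 FPKM in the control and 10.4, 9.82 and 10.8 FPKM in the *Myh9*-deficient libraries. The control libraries were spread widely, with a coefficient of variation of 9.71%, and still all lay above the *Myh9*-deficient libraries (log2 fold change -0.38 with an SE of 0.072, adjusted p = 0.00716, limma). *Cdkn1b* (ENSMUSG00000003031, chromosome 6 from 134920401 to 134925513), which encodes p27, measured 13.3, 13.2 and 13.1 FPKM in the control and 11.3, 9.70 and 10.8 FPKM in the *Myh9*-deficient libraries. Its mean fell by 19.7% with no overlap between the groups (log2 fold change -0.29 with an SE of 0.055, adjusted p = 0.00636, limma). Both calls held in all 18 alternatives, with adjusted p of at most 0.0397 for *Cdkn2c* and 0.0307 for *Cdkn1b*.

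*Cdkn2d* (ENSMUSG00000096472, chromosome 9 from 21288410 to 21291407), the gene of the INK4 protein p19, had the highest FPKM of the 3 inhibitors, with 30.1, 28.9 and 25.5 FPKM in the control and 26.3, 25.2 and 23.5 FPKM in the *Myh9*-deficient libraries. The groups overlapped, since control replicate 3 lay below cKO replicate 1, and the difference did not pass (log2 fold change -0.17, 95% interval -0.33 to -0.0026, adjusted p = 0.0975, limma). It passed without control replicate 3 (-0.23, adjusted p = 0.0252), and with the trend with gene length removed (-0.25, adjusted p = 0.0350). Summed over the 3 inhibitors, the level was 55.1 ± 2.90 FPKM in the control and 45.9 ± 1.77 FPKM in the *Myh9*-deficient LSKs. The ratio of *Cdkn1b* to the summed E-type cyclins, again in FPKM, was 0.887, 0.809 and 0.819 in the control libraries and 0.649, 0.546 and 0.552 in the *Myh9*-deficient libraries. It is a description of inhibitor and cyclin transcripts side by side, with no test, and the groups did not overlap.

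Some members share bases with a gene on the other strand, and the kit named in the labels does not mark strand. *Ccnd1* overlaps *Oraov1* by 1771 bases, *Ccne2* overlaps *Ints8* by 5622, *Cdk4* overlaps *Tspan31* by 641 and *Ccnd3* overlaps *Bysl* by 361 bases, as counted over gene bodies with introns. Of these 4 neighbours, *Bysl* rose (log2 fold change 0.20, adjusted p = 0.00594, limma), against the direction of *Ccnd3*. Antisense genes overlap *Ccnd2* and *Cdk6*. Those of *Ccnd2* were at most 0.480 FPKM and *Gm42435* in *Cdk6* at most 0.216 FPKM, while *Gm17590* in *Cdk6* measured 3.47 FPKM in the control and 3.80 FPKM in the *Myh9*-deficient LSKs (adjusted p = 0.560, limma). Pseudogenes of *Ccnd3* and *Cdk6* were listed at 0 in all libraries. How reads shared by overlapping genes were counted is not given in the sources used here, and their part in these values was not tested. No gene overlaps *Ccne1*, *Cdkn1b*, *Cdkn2c* or *Cdkn2d* in the table.

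*Cdkn2c* had the largest change of the 10 on the log2 scale. Over the 6 libraries, the genes whose log2(FPKM + 1) followed it most closely were *Galnt11*, *Osgep* and *Ankfy1*, with Pearson's r of 0.994, 0.993 and 0.992. These points are the same 6 libraries in 2 groups, and 905 of the genes tested had an r over 0.9 with *Cdkn2c*.

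Around these members, 58 further genes of the G1/S pathway were listed by role, of which 57 stand in the table under the listed symbol and 52 were tested. Of the 52, 5 rose and 19 fell in *Myh9*-deficient LSKs (46.2%, beside 40.5% of all genes tested), with a median log2 fold change of -0.076, beside -0.0096 over all genes. Among the pocket proteins, which hold E2F factors in check, *Rb1* fell from 3.68 ± 0.176 to 2.77 ± 0.254 FPKM (-0.31 on the log2 scale, adjusted p = 0.0116, limma) and *Rbl1* from 11.8 to 10.3 FPKM (-0.18, adjusted p = 0.0128). The call for *Rbl1* was lost with the trend with gene length removed (adjusted p = 0.0596). *Rbl2* measured 5.08 and 4.75 FPKM (adjusted p = 0.288, limma).

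Of 9 E2F and DP factors tested, 1 rose and 2 fell (33.3%, below the 40.5% of all genes). *E2f4*, best known as a repressor, rose from 52.0 to 62.8 FPKM (0.27 on the log2 scale, adjusted p = 9.1e-04, limma). The activators *E2f1* (21.8 to 18.4 FPKM, log2 fold change -0.24) and *E2f2* (3.77 to 2.40 FPKM, -0.49) fell, with adjusted p of 0.00807 and 0.00952. Among 15 E2F target genes of S phase, 1 rose and 9 fell, beside 19.9% of all genes higher and 20.6% lower. *Mcm6* (-0.34), *Cdt1* (-0.26) and *Mcm5* (-0.26), all needed to license replication origins, had the largest falls on the log2 scale. The gene that rose was *Rrm2*, a subunit of ribonucleotide reductase (49.2 to 56.3 FPKM, adjusted p = 0.00448, limma). *Foxm1*, a transcription factor of later cell cycle genes, fell as well (-0.31, adjusted p = 0.00172, limma).

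Of the CDK inhibitors outside the 10, *Cdkn1a*, the gene of p21, measured 13.0, 11.9 and 14.5 FPKM in the control and 8.84, 7.87 and 9.21 FPKM in the *Myh9*-deficient libraries. It fell more on the log2 scale than any member (log2 fold change -0.55, adjusted p = 0.00265, limma). *Cdkn1c*, which encodes p57, was below the filter, at 0.714 ± 0.156 FPKM in the control and 0.891 ± 0.264 FPKM in the *Myh9*-deficient LSKs with 20 to 43 reads. *Cdkn2a* and *Cdkn2b* had at most 3 and 2 reads in any library, where a difference is not detectable. *Cdk2*, the partner of the E-type cyclins, measured 20.7 and 20.8 FPKM (95% interval of the log2 fold change -0.066 to 0.082, adjusted p = 0.857, limma). Of the genes that activate CDK2, *Cdk7* (0.30) and *Ccna2* (0.18) rose and *Cdc25a* (-0.17) fell on the log2 scale, with adjusted p of 0.00254, 0.00533 and 0.0116, the last lost with the trend with gene length removed (adjusted p = 0.0946).

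Of 10 tested genes for the turnover of cyclins and p27, 1 rose and 2 fell (30.0%, below the 40.5% of all genes). *Cops5*, a COP9 signalosome subunit that promotes the export and decay of p27, rose from 29.1 to 34.1 FPKM (0.22 on the log2 scale, adjusted p = 0.00742, limma). *Ambra1*, the substrate receptor through which D-type cyclins are degraded, fell from 5.75 to 4.37 FPKM (-0.33, adjusted p = 0.0238), a call lost in 6 of 18 alternatives. The other fall was that of *Gsk3b* (3.18 to 2.61 FPKM, adjusted p = 0.0429), lost in 10 of 17. The ubiquitin ligase genes of p27 and cyclin E, *Skp2* (adjusted p = 0.184) and *Fbxw7* (adjusted p = 0.631), did not pass. Of 8 other partners of D- and E-type cyclins, 0 rose and 2 fell with limma (beside 40.5% of all genes called), *Foxm1* and *Cables1* (2.17 to 1.53 FPKM, adjusted p = 0.0328, lost in 6 of 17 alternatives), and the same 2 had an unadjusted p under 0.05. *Myc*, a driver of *Ccnd2* and *Cdk4* transcription, measured 110.2 ± 1.32 FPKM in the control and 110.5 ± 2.54 FPKM in the *Myh9*-deficient LSKs (95% interval of the log2 fold change -0.059 to 0.067).

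**Figure D4:**
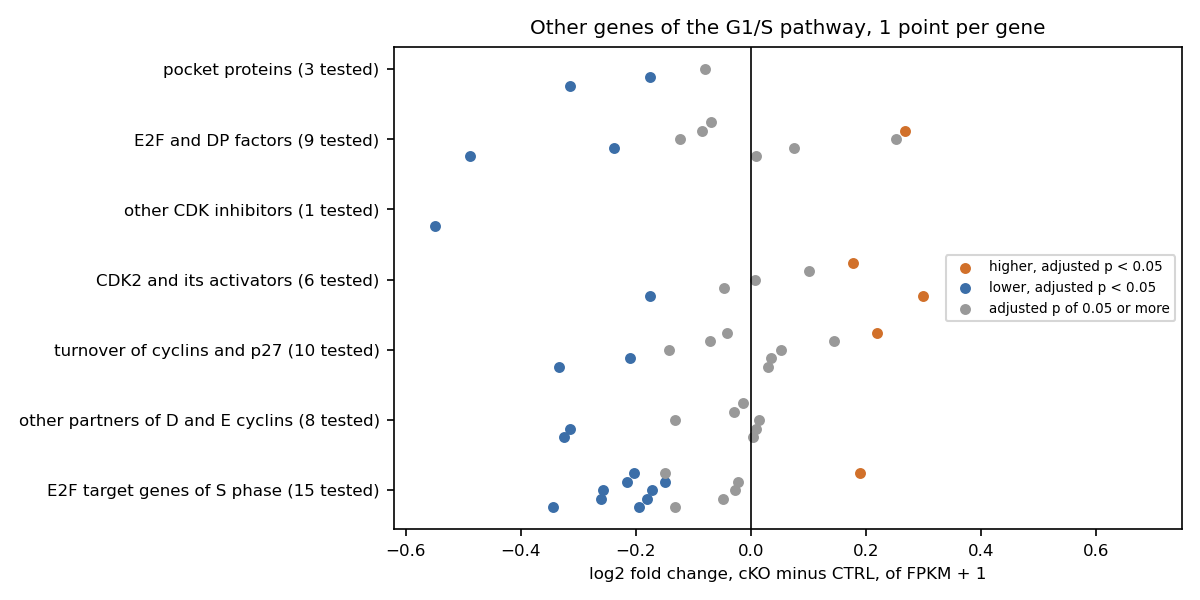
Log2 fold change (*Myh9*-deficient minus control, on FPKM + 1) of the 52 other pathway genes tested, 1 point per gene, in 7 rows by role and coloured by the call at an adjusted p under 0.05 (vertical spread within a row has no meaning). The S phase row holds 9 falls and 1 rise, and the point farthest to the left is *Cdkn1a* at -0.55.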

How the data were processed

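LSK RNA was sequenced from 3 control and 3 *Myh9*-deficient cell sets. Per the submitters' processing notes in the labels, reads were aligned to mm10 with HISAT2 2.0.5, and the authors deposited 1 table of FPKM values with gene lengths. The counting program and annotation release are not given in the sources used here. Multiplied by gene length, 100% of values were whole multiples of 1 step per library (within 0.02 of a read), which gave the reads behind each value. The test covered the genes whose mean over the 6 libraries reached 1 FPKM, on log2(FPKM + 1) with limma 3.58.1 (R 4.3.3), with moderation along a trend, two-sided, and Benjamini-Hochberg adjustment. Such fold changes understate those of low genes. Alternatives were another pseudocount (0.1), no filter or a mean of 5 FPKM, median-of-ratios, quantile or TPM scaling, other moderation, a replicate block, voom on the recovered reads, removal of the trend with gene length, and leaving out each library. An exact permutation test of 1 gene can reach no p under 0.1 with this design.

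The 10 genes, the pathway and marker lists and the rule for named genes were chosen with earlier results of these data known. The rule took all 10 members, *Myh9*, up to 3 called genes with the largest changes in each pathway list, genes with a described role, and the 3 genes most like the member that changed most. *Skp2*, *Fbxw7*, *Myc*, *Rrm2*, the named markers and the overlapping genes were named after their values were seen. Promoter windows are RefSeq's, motifs were searched in Python 3.11.15, and the test was checked on simulated data. Trends with GC content used GENCODE M21 transcripts, and were added after the data were seen.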

Additional observations from a re-analysis of the deposited data

How the results depend on the processing

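Of the 10 genes, *Ccne1*, *Cdkn1b* and *Cdkn2c* kept their calls in all 18 alternatives and *Ccnd2* in 17, the exception being without control replicate 3. The calls of *Ccnd3* and *Cdk6* were lost with the trend with gene length removed, also together with the trend with GC content (log2 fold change -0.053 and -0.075), and *Ccnd3* also without 3 single libraries. *Cdk4* turned to -0.028 with quantile normalization. With 1 library left out, 1 to 2 members were higher and 3 to 4 lower, and over 2-fold with an unadjusted p under 0.05 there were 0 and 0. Among other genes, *Cdk2*, which passed no test, changed sign with quantile normalization (-0.0038), TPM (-0.012), without control replicate 3 and without cKO replicate 1 (-0.0079 to 0.019 with 1 library left out). In recovered reads, not scaled by length, shares in control and *Myh9*-deficient LSKs were 5.57% and 5.06% for *Ccnd1*, 39.2% and 44.8% for *Ccnd2*, 55.2% and 50.2% for *Ccnd3*, 52.7% and 60.9% for *Ccne1* and 24.9% and 22.0% for *Cdk6*, and the ratio of *Cdkn1b* to E-type cyclins was 1.27 and 0.903. The directions were those in FPKM. Replicate numbers are shared between groups, and deviations of same-numbered libraries correlated at -0.026 to -0.0046. These correlations show no strong shared signal, but they cannot tell whether same-numbered sets were matched by design. With a replicate block, the members' calls were the same but for *Cdkn2d*, which passed (adjusted p = 0.0234), and 2063 genes were higher and 2044 lower in place of 2295 and 2378.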
